A study of Mus musculus with 20 samples.

Results

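The genes described here encode the Ras to Erk signalling cascade, and 7 of them were taken by name from the 14299 genes of the count table: Hras, Nras, Araf, Braf, Map2k1, Map2k2 and Mapk3. Hras and Nras encode Ras proteins, small GTPases of the inner cell membrane. Araf and Braf encode Raf kinases, which bind active Ras. Map2k1 and Map2k2 encode the kinases Mek1 and Mek2, which Raf phosphorylates, and Mapk3 encodes the kinase Erk1, which Mek phosphorylates. Growth factor receptors at the cell surface switch Ras on through adaptors and exchange factors, and active Erk phosphorylates other kinases and transcription factors that set immediate early genes. The cascade is controlled mainly at the protein level, by GTP loading and phosphorylation, which RNA counts do not measure.

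The cells were primary mouse ovarian surface epithelial (OSE) cells, the single layer that covers the ovary. After 48 h without hormone they were cultured for 15 days with 100 nM 17β-estradiol (E2) or with vehicle, 0.0002% ethanol, and a high-throughput Fluidigm C1 chip isolated single cells, with 1 library made from each of its columns. Control cells came from 10 columns and E2 cells from 9, and a further E2 column held no cell in the files, so 589 cells were analysed. Each condition was loaded as 1 cell suspension, so that the 19 libraries are technical divisions of a pair of suspensions: p-values measure the spread between libraries only, and treatment and suspension cannot be told apart. The authors' deposited labels split the cells into cluster 1, with 126 control and 42 E2 cells, and the responsive cells, with 203 control and 218 E2 cells.

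Libraries held 2693258 to 5078340 reads over 26 to 36 cells. The median cell had 143233 reads in responsive control, 117809 in responsive E2, 112126 in cluster 1 control and 87632 in cluster 1 E2, and the median mitochondrial share was 2.08%, 2.43%, 2.53% and 3.55% in the same order. For every library and cluster with at least 3 cells, the reads of those cells were added up, which gave 36 sums: 10 control and 9 E2 sums of responsive cells, 10 control and 7 E2 sums of cluster 1. The sums of responsive cells held 2136833 to 3903973 reads, those of cluster 1 only 233982 to 2223981, so values in cluster 1 are less precise. Levels are given as CPM, a gene's reads scaled to a common library total after TMM adjustment, on the same scale for all 36 sums. The assay reads mainly 3′ ends and levels are not per transcript length, so they are compared between groups for 1 gene and not between genes. Levels of cell type markers are scaled to total reads only, without TMM adjustment. Of 9 OSE markers, 8 were in the table, with a summed level of 2774 to 6656 CPM in every sum. Of 8 stromal fibroblast markers 6 were in the table, at 1579 to 8569 CPM.

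Map2k1 was the member that rose with E2. Its level in the responsive cells of the 10 control libraries was 22.1 CPM at the lowest, 66.2 at the median and 104.6 at the highest, and in the 9 E2 libraries 98.4, 129.3 and 216.6. All 9 E2 libraries lay above the control median, 7 of them lay above every control library, and 8 of the 10 control libraries lay below every E2 library, so the groups overlapped only at their edges. Control libraries averaged 67.9 CPM ± 26.5 (SD, n = 10), and E2 libraries 143.6 ± 45.2 (SD, n = 9), a ratio of 2.11. This gave a log2 fold change of 1.07 (SE 0.24, edgeR quasi-likelihood test, adjusted p = 0.0151).

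No other member passed the test in the responsive cells. A gene counted as called where the adjusted p, corrected over all genes tested, was below 0.05 and the log2 fold change exceeded 0.5 in either direction. 1 of 7 members was called, and of all 10265 genes tested 141, or 1.37%, were called. The gene next to it in the pathway, Map2k2, had a log2 fold change of -0.34 (SE 0.20, edgeR adjusted p = 0.63).

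**Figure D1:**
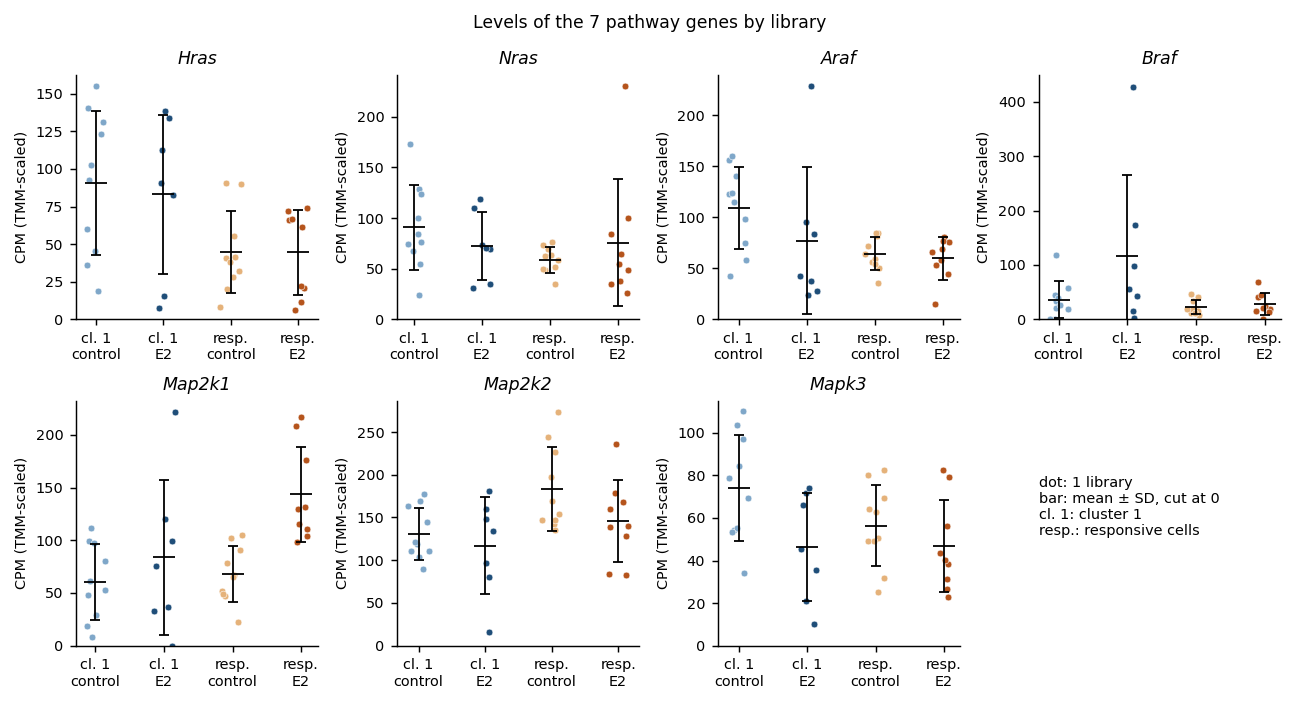
Level of each gene in CPM (y axis) in every library with at least 3 cells of the group (dots), for cluster 1 and responsive cells of control and E2 cultures (x axis), with the mean and SD (black bars, cut off at 0). Map2k1 in responsive E2 cells lies at 98.4 to 216.6 CPM against 22.1 to 104.6 in responsive control cells, while the groups of the other genes overlap broadly.

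The sequence before the Map2k1 start is shown because Map2k1 was the called member, and that of Map2k2 because it encodes the other Mek. Each runs 5′ to 3′ on the gene's strand from 250 bases before to 50 bases after the RefSeq start (GRCm38.p6), and capitals mark GGGCGG or its reverse complement CCGCCC, the GC box that Sp1 family factors can bind.
Map2k1 (chr9:64253556-64253855, minus strand): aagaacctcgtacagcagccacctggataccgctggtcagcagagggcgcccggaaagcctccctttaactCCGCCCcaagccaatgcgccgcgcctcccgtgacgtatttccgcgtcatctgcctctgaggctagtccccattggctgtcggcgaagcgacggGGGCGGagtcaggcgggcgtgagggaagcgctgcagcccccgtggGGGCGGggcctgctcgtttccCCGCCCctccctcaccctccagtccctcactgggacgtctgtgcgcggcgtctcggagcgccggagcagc
Map2k2 (chr10:81105665-81105964, plus strand): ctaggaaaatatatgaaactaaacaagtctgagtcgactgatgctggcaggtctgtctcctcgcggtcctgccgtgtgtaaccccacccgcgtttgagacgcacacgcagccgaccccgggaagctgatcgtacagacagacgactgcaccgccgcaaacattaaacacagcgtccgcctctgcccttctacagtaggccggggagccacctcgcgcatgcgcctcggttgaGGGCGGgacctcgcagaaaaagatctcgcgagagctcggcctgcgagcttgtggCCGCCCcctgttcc
The Map2k1 window held 4 GC boxes, the Map2k2 window 2, and 35.7% of all 32851 RefSeq promoter windows of the same length held at least 1. The palindrome GGTCANNNTGACC, the full estrogen response element, had no match in the windows of any of the 6 members with an entry, and 0.07% of all windows held it. CCAAT, searched on both strands, had 2 matches before Map2k1 and none before Map2k2, and was present in 37.4% of all windows. A match is a description of letters, and no match says only that these letters are not in this window.

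The spread of Map2k1 over cells was read as the share of the top cell. In the 9 E2 sums of responsive cells, the cell with the most Map2k1 reads held 14.8% to 29.9% of them, and in the 10 control sums 16.5% to 32.1%. Map2k1 reads were whole numbers in 99.1% of the cells that had any. Its transcripts shared 34 of 3385 distinct 31-base words with another annotated gene, Map2k2. Cells differed in depth between conditions, and with every cell thinned to 20000 reads the log2 fold change was 1.21 (SE 0.28, edgeR adjusted p = 0.0087). With all cells of a library in 1 sum, whatever their cluster, it was 1.10 (SE 0.22, edgeR adjusted p = 0.00546). In the authors' imputed log2 values, which carry no test here, Map2k1 averaged 1.27 in responsive control and 1.76 in responsive E2 libraries, a difference of 0.49. This is a difference between means of imputed log values of cells. Its size is therefore not compared with the log2 fold change from summed counts.

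Because both Mek genes were read in the same libraries, the share of Mek reads that came from Map2k1 needs no scaling. In responsive cells it was 13.5% at the lowest, 25.5% at the median and 40.2% at the highest over 10 control libraries, and 35.8%, 50.3% and 67.9% over 9 E2 libraries. The means were 26.9% ± 9.1 (SD) and 49.7% ± 10.8. In cluster 1 it ran from 4.42% over a median of 34.9% to 51.9% in control and from 0 over 29.5% to 62.2% in E2, so that the ranges overlapped almost wholly. The share was computed after the 2 genes had been seen to differ and was not tested.

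**Figure D2:**
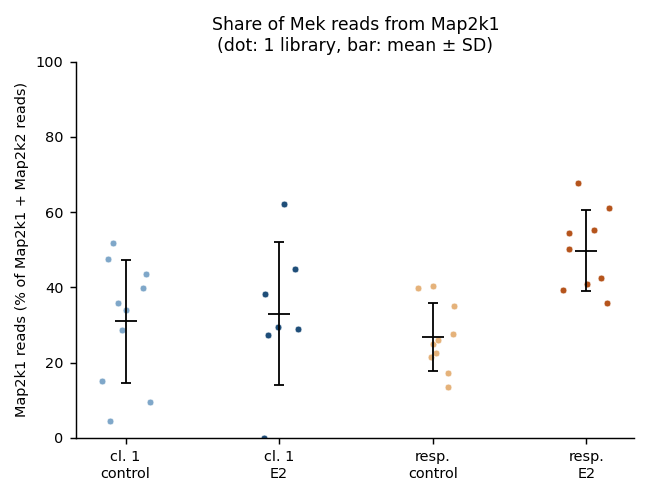
Reads of Map2k1 as a percentage of the reads of Map2k1 and Map2k2 together (y axis), for each library (dots) in the 4 groups of cells (x axis), with mean and SD (black bars). The responsive E2 libraries run from 35.8% to 67.9% and the responsive control libraries from 13.5% to 40.2%.

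In cluster 1, Map2k1 was 7.86 CPM at the lowest, 57.3 at the median and 111.4 at the highest in 10 control libraries, and 0, 75.7 and 221.2 in 7 E2 libraries. The E2 values enclosed all control values, from the library with no Map2k1 read, which held 3 cluster 1 cells, to 1 library at 221.2. Its log2 fold change of 0.53 (SE 0.61) was not called. The difference between the changes with E2 in cluster 1 and in responsive cells was -0.59 on the log2 scale (SE 0.62, edgeR adjusted p = 0.816), so that the change was not shown to differ between the clusters. None of the 7 members was called in cluster 1, where 7 of 8340 genes were called by edgeR (0.0839%, 622 genes at an unadjusted p below 0.05), nor in the difference between clusters, where 21 of 11398 genes were called (0.184%, 1244 genes at an unadjusted p below 0.05). DESeq2 called none of the members in either comparison.

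The authors also deposited a trajectory state for each cell, made from the same expression values, so that levels by state are a description. State 5 held 151 E2 cells, state 2 143 control and 4 E2 cells, and state 4 21 control and 43 E2 cells. Map2k1 was at 149.7 CPM ± 50.3 (SD, n = 9 libraries, scaled to total reads only) in E2 cells of state 5 and at 87.2 (1.46 to 167.4, n = 8) in E2 cells of state 4. Control cells of state 2 had 68.3 ± 33.7 (n = 10). The ranges of both E2 states overlapped, since state 5 began at 93.3 CPM.

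The Ras genes came next. Hras in responsive cells ran from 8.23 CPM over a median of 39.5 to 90.5 in control and from 6.17 over 61.2 to 73.7 in E2, and the means were 44.6 ± 27.3 and 44.5 ± 28.5. The groups overlapped, and the log2 fold change was 0.00 to 2 decimals (SE 0.43). In cluster 1, Hras ran from 18.7 over 97.9 to 155.3 CPM in control and from 7.54 over 90.6 to 138.3 in E2. The means in cluster 1 were 90.6 ± 47.9 in control and 83.1 ± 53.0 in E2, both above the means in responsive cells. Hras was higher in cluster 1 than in the responsive cells of the same library in 15 of 17 libraries, and the log2 fold change between the clusters, fitted with condition as a covariate, was 1.00 (SE 0.34).

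The clusters were drawn from the expression of these same cells, so that differences between them describe the labels and no p is given. Under the rule used for E2, 1 of 7 members, Hras, passed between the clusters, where 1567 of 9826 genes passed (15.9%). Hras fell short of the rule without control library 2, 7, 8, 9 or 10 or without E2 library 11, 17 or 18, with log2 fold changes of 0.88 to 1.15 over all 19 omissions.

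Nras in responsive cells ran from 35.0 CPM over a median of 60.4 to 76.8 in control and from 25.6 over 54.8 to 230.8 in E2. Most E2 libraries lay among the controls, and the highest, E2 library 15, lay far above the rest. There 21 of 24 cells held a read, and the top cell held 24.5% of the 711 reads. Nras had a log2 fold change of 0.35 (SE 0.31), which became -0.064 without that library. In cluster 1 Nras averaged 90.7 CPM ± 42.3 in control and 72.5 ± 33.3 in E2, and it was higher than in responsive cells in 13 of 17 libraries. Nras values were whole numbers in only 14.9% of the cells with any, the lowest share of the 7 members. Most of its values are therefore estimates and not whole read counts. Of its 5458 distinct 31-base words, 160 occur in transcripts of other genes, 4339 genes in all. The part of these words in the fractional values was not tested.

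The Raf genes did not pass the test in either cell group. Araf in responsive cells ran from 36.0 over 61.3 to 84.9 CPM in control and from 14.7 over 65.5 to 80.3 in E2, with a log2 fold change of -0.11 (SE 0.25). The E2 values covered the control values except for the top. In cluster 1 Araf ran from 42.2 over 119.0 to 159.6 CPM in control and from 23.6 over 42.7 to 228.6 in E2, where 6 of 7 libraries lay below the control median and E2 library 20 lay above every control. Araf had a log2 fold change of -0.46 (SE 0.46) there, and of -1.03 without E2 library 20. Araf was higher in cluster 1 than in responsive cells in 8 of 10 control libraries and in 3 of 7 E2 libraries.

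Braf had the largest standard error of the 7 in each fit of E2 against control. In responsive cells it ran from 7.96 over 19.4 to 46.6 CPM in control and from 1.52 over 21.5 to 69.4 in E2, with a log2 fold change of 0.28 (SE 0.47). In cluster 1 it ran from 0 over 30.3 to 118.2 CPM in control and from 1.69 over 55.7 to 427.2 in E2. The highest E2 value, in library 15, rests on 3 cells, 1 of which held 80 of the 82 reads. The log2 fold change in cluster 1 was 1.69 (SE 0.82, edgeR adjusted p = 0.667), and 0.87 without that library. Braf was higher in cluster 1 than in responsive cells in 13 of 17 libraries, with a log2 fold change of 1.30 (SE 0.49). The gene overlaps Ndufb2 on the opposite strand by 146 exonic bases. With both strands searched, 116 of the 13964 31-base words of Braf occur in Ndufb2. How reads of these stretches were divided between the genes was not tested.

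Map2k2 in responsive cells ran from 135.3 over 161.6 to 273.6 CPM in control and from 82.1 over 140.5 to 236.5 in E2. Of the 9 E2 libraries 6 lay below the control median and 3 below every control, and no E2 library lay above the highest control. In cluster 1 it averaged 130.9 CPM ± 30.4 in control and 116.8 ± 56.7 in E2, with a log2 fold change of -0.11 (SE 0.36). Among control libraries, Map2k2 was lower in cluster 1 than in responsive cells in 9 of 10, and among E2 libraries in 3 of 7. The log2 fold change between the clusters was -0.38 (SE 0.18), and that of Map2k1 was -0.40 (SE 0.31).

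Mapk3 closed the cascade. In responsive cells it ran from 25.1 over 56.6 to 82.4 CPM in control and from 22.7 over 40.4 to 82.3 in E2, with a log2 fold change of -0.27 (SE 0.28). The ranges were nearly the same, and 7 of 9 E2 libraries lay below the control median. In cluster 1 it ran over 10 control libraries from 33.9 CPM with a median of 74.2 and a mean of 74.0 ± 25.0 (SD), and over 7 E2 libraries from 10.4 over 45.2 to 74.1. All 7 E2 libraries lay below the control median there, and the log2 fold change was -0.62 (SE 0.47, edgeR adjusted p = 0.853). Cluster 1 exceeded responsive cells in 12 of 17 libraries.

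**Figure D3:**
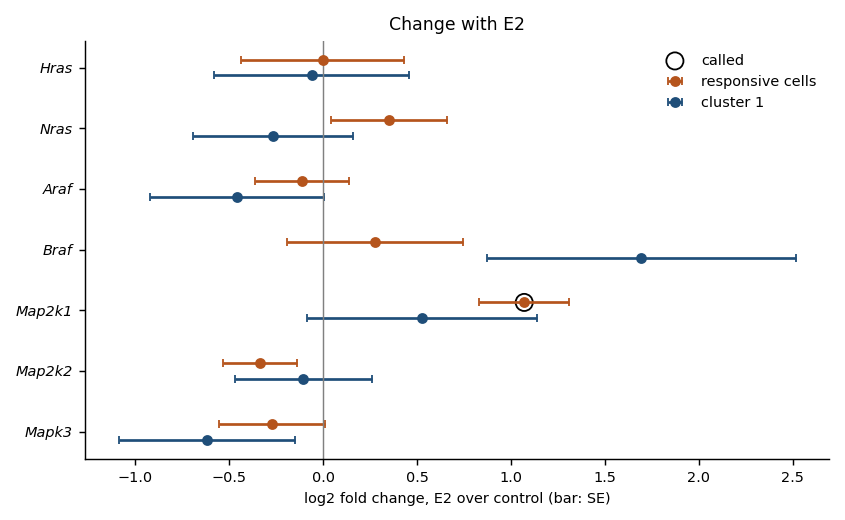
log2 fold change of E2 over control (x axis, dots) with its standard error (bars) for each gene (y axis) in responsive cells (orange) and cluster 1 (blue), from the edgeR fits over all genes. The ringed dot marks the only call, Map2k1 in responsive cells at 1.07, while Braf in cluster 1 at 1.69 has a standard error of 0.82 and was not called.

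Ordered by mean level, the 4 groups did not fall in 1 common order. Hras and Araf were highest in cluster 1 control and lowest in responsive E2, and Mapk3 was highest in cluster 1 control and lowest in cluster 1 E2. Map2k1 was highest in responsive E2 and lowest in cluster 1 control. Map2k2 was highest in responsive control and lowest in cluster 1 E2. Nras was highest in cluster 1 control and Braf in cluster 1 E2, and both were lowest in responsive control. In none of the 7 genes did neighbours in the order differ by more than the sum of their SDs.

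Reads of the whole cascade were looked for in single cells. With each cell thinned to 20000 reads, so that depth was equal, the median cell of every group held a read of 3 of the 7 genes. A read of at least 1 Ras, 1 Raf and 1 Mek gene and of Mapk3 was found in 11.3% ± 4.2 (SD over 10 libraries) of responsive control cells and 7.37% ± 6.32 (9 libraries) of responsive E2 cells (exact two-sided permutation p = 0.126, adjusted p = 0.252 over 2 tests). In cluster 1 the shares were 9.46% ± 8.74 and 4.90% ± 8.53 (exact two-sided permutation p = 0.31). At full depth, where control cells had more reads, the shares were 43.5% ± 10.2 and 28.3% ± 8.8 in responsive cells (exact two-sided permutation p = 0.00306, adjusted p = 0.00596) and 42.7% ± 13.2 and 18.4% ± 18.5 in cluster 1 (exact two-sided permutation p = 0.00596). The difference passed the test at full depth and missed it at 20000 reads. The part of depth in the difference was not tested.

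For single genes at 20000 reads, Map2k1 was found in 38.9% (SD 12.98) of responsive control cells and 54.3% (SD 14.2) of responsive E2 cells (exact two-sided permutation p = 0.0242, adjusted p = 0.162 over 14 tests). The lowest library was at 9.52% in control and 28.0% in E2, the highest E2 library was at 72.4%, and the groups overlapped. It was the only member with a higher share in responsive E2 cells, and its share was higher at full depth as well, 56.7% ± 12.9 against 68.7% ± 11.2. Where a responsive cell held Map2k1, the median was 13 reads in control and 19 in E2. Mapk3 was found in a mean of 42.0% and 30.9% of responsive control and E2 cells (exact two-sided permutation p = 0.0464, adjusted p = 0.162), and Araf in 40.9% ± 9.1 and 32.6% ± 6.1 (exact two-sided permutation p = 0.0354, adjusted p = 0.162). None of the 14 differences passed the correction at equal depth. The exact binomial interval of the share of responsive E2 cells with Map2k1 over all 218 cells was 48.2% to 61.8%, and over 203 control cells 31.7% to 45.5%, for counting error only.

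**Figure D4:**
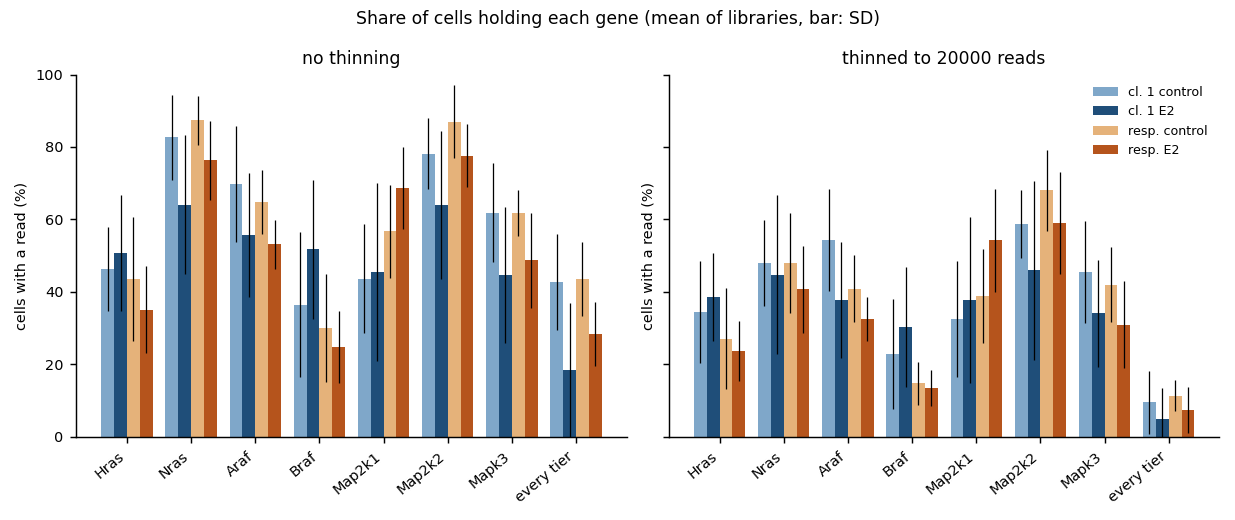
Share of cells (y axis, percent, mean of libraries with SD) with a read of each gene, and of cells with a read from every tier of the cascade (x axis), for the 4 groups of cells, at full depth (left) and with each cell thinned to 20000 reads (right). Map2k1 is the gene whose share is higher in responsive E2 than in responsive control cells in both panels, and the share with every tier is 43.5% against 28.3% at full depth and 11.3% against 7.37% at equal depth.

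Of the rest of the pathway, going by lists written from general knowledge, 1 gene was called in the responsive cells. None of the genes in the fit was called among 12 relatives of Ras (median log2 fold change 0.05), 17 receptors, adaptors and exchange factors (-0.21), 17 inhibitors such as GTPase-activating proteins and dual-specificity phosphatases (-0.17), 13 scaffolds (0.02), 6 kinases that Erk phosphorylates (-0.01) and 18 genes of the parallel Jnk, p38, Erk5 and Erk3 cascades (0.02). The median over all 10265 genes was 0.02, and 141 of them, or 1.37%, were called. The 15 genes known to follow Erk activity had a median of -0.23, and several of them are also among the 17 inhibitors. Of these 15, 1 was called, Fos, which encodes a subunit of the transcription factor AP-1. Fos in responsive cells ran from 632 over 1053 to 1367 CPM in control and from 1360 over 1528 to 2810 in E2. The ranges touched, and the log2 fold change was 0.69 (SE 0.15, edgeR adjusted p = 0.00871). In cluster 1 the change of Fos was 0.88 (SE 0.37, edgeR adjusted p = 0.577).

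In cluster 1, none of 10 Ras relatives (median -0.20), 15 receptors, adaptors and exchange factors (-0.05), 14 inhibitors (-0.51), 9 scaffolds (0.04), 13 Erk output genes (-0.45) and 16 parallel genes (-0.27) was called, against a median of -0.06 over all 8340 genes. Of those 8340 genes, 7 (0.0839%) were called, and the output and inhibitor lists again share genes. Of 5 kinases that Erk phosphorylates (median -1.02), 1 was called, Rps6ka4, which encodes the nuclear kinase Msk2. It ran from 10.6 over 73.2 to 125.3 CPM in control and from 0 over 3.29 to 10.1 in E2, so that all 7 E2 libraries lay below every control. The E2 sums held 11 reads in all and 2 of them held none. It therefore passed the low-count filter only through the control sums, where it was high, and its call is given as a description. The log2 fold change was -4.40 (SE 0.82, edgeR adjusted p = 0.0343), and it missed the threshold without control library 1, 2, 3, 4, 5, 8 or 10 or E2 library 11, 17 or 19, with values of -4.94 to -4.15 and edgeR adjusted p of 0.0288 to 0.0792 over all 17 omissions. In responsive cells Rps6ka4 averaged 31.9 CPM ± 14.9 in control and 51.3 ± 24.9 in E2, and the change with E2 in cluster 1 was lower than that in responsive cells by a log2 difference of -5.18 (SE 0.78, edgeR adjusted p = 0.000568).

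Markers of other cell types were read beside these results, and their part in them was not tested. In responsive cells 1 of 8 OSE markers was called up with E2, but the median log2 fold change of the 8 was -0.19. Of 6 stromal fibroblast markers 1 was called down (median -0.52). Over all 10265 genes tested, 141 (1.37%) were called, 87 up and 54 down. The summed stromal level (scaled to total reads only) was 1912 to 2329 CPM in responsive control and 1579 to 4227 in responsive E2 sums. In cluster 1 it was 2874 to 4659 in control and 2736 to 8569 in E2. The summed OSE level in responsive cells was 4452 to 5220 CPM in control and 2774 to 5061 in E2. In cluster 1 the OSE sum was 3996 to 6656 CPM in control and 3161 to 5359 in E2. Of 6 granulosa markers 1 was in the table, at no more than 203.6 CPM in any sum, and of 5 theca and steroidogenic markers 2 were, at up to 59.0 CPM in responsive control sums and 128.5 in responsive E2 sums against 489.4 and 647.4 in cluster 1. Endothelial markers, 2 of 5 in the table, lay at 314 to 739 CPM over all sums, leukocyte markers, 4 of 6, at 0 to 133.5, and muscle and pericyte markers, 3 of 6, at 0 to 190.4.

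Some genes tracked a member across the 36 sums, by Pearson correlation of log2 CPM. The sums share libraries, treatment and depth, and all 11398 genes of the fit were searched, so these are descriptions. Map2k2 was most like Arpp19 (r = 0.84), Psmb3 (0.83) and Dusp3 (0.82), and Map2k1 most like Arf4 (0.77), Tmco1 (0.77) and Mrpl28 (0.76). Araf was most like Scai (0.74), Mapk3 like Ccdc9b (0.72) and Braf like Nr1h2 (0.71). The highest r was 0.68 for Hras and 0.63 for Nras. Among the members themselves the highest r was 0.54, between Map2k1 and Map2k2, and the lowest -0.45, between Braf and Map2k1.

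In the GENCODE M21 annotation of GRCm38, Hras spans chr7:141189105-141194005 and Mapk3 chr7:126759601-126765819. Nras spans chr3:103058285-103067914, Braf chr6:39603237-39725463 and Map2k1 chr9:64185770-64253631. Map2k2 spans chr10:81105915-81133975 and Araf chrX:20797814-20860519.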

How the data were processed

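Per the study's methods, the authors assigned reads to capture sites with the Fluidigm software, estimated transcript counts with kallisto (0.44.0) on GRCm38, brought them to gene level with tximport and used scater to filter cells and genes. The deposited count table holds estimated counts, not normalized, of which 90.1% of values were whole. The authors also deposited log2 values (base 2 inferred from the counts) imputed with MAGIC, used only as an alternative, and cell labels from SC3 and monocle with the percent of mitochondrial reads, used as deposited. All columns of cells were mapped to a sample (0 were not), and 0 cell names were repeated between libraries.

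Counts of the cells of 1 library and cluster were added (at least 3 cells), rounded and filtered with filterByExpr by condition. For the difference between the changes with E2 in cluster 1 and in responsive cells, the filter was by cluster and condition. The counts were then scaled by TMM and fitted over all genes with edgeR (4.0.16, R 4.3.3), with Benjamini-Hochberg adjustment over all genes tested. Called genes had a log2 fold change beyond 0.5 in either direction and an adjusted p under 0.05. Shares of cells were compared after thinning each cell to 20000 reads, with exact permutation of libraries. Alternatives were DESeq2 (1.42.0), limma-voom (limma 3.58.1), no filter, at least 5 cells per sum, thinned cells, k-means labels made from the counts on 10 principal components (the same for 583 of 589 cells), the library as a block, all cells of a library, imputed values, and leaving out each library. The scripts were tested on simulated data.

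The members and the gene lists were chosen with earlier results of these data known. The text names the 7 members, every called gene of the pathway lists (up to 4 per direction) and, for each member, the 3 genes of highest correlation where r was at least 0.7. Other core genes of the cascade were not analysed here. Promoter windows were taken from RefSeq tables, which matched 6 of the 7 members. Intervals cover counting error only, and reads carried no molecular identifiers.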

Additional observations from a re-analysis of the deposited data

Results flagged for a closer look

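Levels in 4 of 28 groups of libraries had 1 library far from the others by Dixon's test. Chance flags about 1 in 20 groups where values are normally distributed, which was not tested for these CPM values. All 4 flags were the highest library of their group. Nras in responsive E2 cells stood at 230.8 CPM in library 15, which held 24 such cells and 711 Nras reads. Braf in cluster 1 E2 cells stood at 427.2 CPM in library 15, from 3 cells and 82 reads. Araf in cluster 1 E2 cells stood at 228.6 CPM in library 20, from 5 cells and 91 reads. Braf in cluster 1 control cells stood at 118.2 CPM in library 2, from 10 cells and 138 reads.

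The change of Rps6ka4 with E2 differed between the clusters, by a log2 difference of -5.18 (cluster 1 minus responsive cells, edgeR adjusted p = 0.000568). It was called in all 19 omissions of a library. The E2 sums of cluster 1 held only 11 Rps6ka4 reads in all, so the difference is given as a description.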

How the results depend on the processing

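Map2k1 in responsive cells was called in all 26 alternatives with a test, with log2 fold changes of 0.97 to 1.21 and adjusted p of 0.00139 to 0.0433, and 1 member was called in each. At least 5 cells per sum repeated the main fit there, because every responsive sum held at least 15 cells. In cluster 1 that setting left out only E2 library 15, and so equals the omission of that library. In imputed values, compared without a test, the difference of Map2k1 in responsive cells was 0.49. No alternative called a member in cluster 1 or in the difference between the changes with E2 in cluster 1 and in responsive cells. Between clusters, DESeq2 passed 3 members, thinned cells 2, and no filter and k-means labels 0, and leaving out a library 0 to 2. Over all genes, DESeq2 called 237 against 141 in responsive cells, 48 against 7 in cluster 1 and 105 against 21 in the difference, limma-voom 13 in the difference and 2437 against 1567 between clusters, and no filter 1 in cluster 1. With a library left out the calls were 107 to 141, 1 to 9, 15 to 44 and 1431 to 1709. The library block gave 2510 between clusters, and 21 in the difference, and changed no call of a member. An alternative added after seeing the data, the filter by cluster and condition, called 1827 of 11398 genes between clusters and passed 1 member, Hras. No paired analysis was possible between E2 and control because their libraries share no numbers.

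Shares of cells passed for 0 of 14 tests thinned, for 2 at full depth and for 2 at 2 or more reads, and the share with every tier differed by -15.2 and -24.3 points at full depth in responsive cells and cluster 1. Map2k1 in cluster 1 changed sign at 2 or more reads (-1.05 points).

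Signs of small changes turned, none of them called and the cause not tested. Hras in cluster 1 was 0.020 with DESeq2, 0.11 with at least 5 cells, 0.24 thinned and 0.10 with k-means labels. The difference between its changes with E2 in cluster 1 and in responsive cells was 0.024, 0.10, 0.23 and 0.14 in the same order. In what follows, the difference refers to this quantity. Map2k2 in cluster 1 was 0.074 with at least 5 cells and 0.010 imputed, Nras in responsive cells -0.080 imputed, and the Mapk3 difference 0.15 thinned. The Fos difference was -0.28 with limma-voom, -0.20 with at least 5 cells, -0.031 thinned and -0.28 with the library block. Rps6ka4 was -0.12 in all cells of a library, and between clusters 0.029 with limma-voom and 0.036 with the block. With a library left out, Hras ran from -0.13 to 0.17 in responsive cells, -0.23 to 0.14 in cluster 1 and -0.40 to 0.10 in the difference, Nras from -0.064 to 0.47, Araf from -0.18 to 0.016 and Braf from -0.016 to 0.45 in responsive cells, Map2k2 from -0.24 to 0.074 in cluster 1, and Fos from -0.13 to 0.30 in the difference. Rps6ka4 in cluster 1 was not called with limma-voom (-4.34, adjusted p = 0.116) or no filter (-4.49, adjusted p = 0.0534), and thinned cells left it out of the fit. The 7 E2 sums of cluster 1 rest on 39 cells in all.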
